A study of Mus musculus with 39 samples.

Results

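Old and young mice that both received the drug ISRIB after lung injury were compared in Siglec F-low alveolar macrophages, the cells that incoming monocytes give rise to in the injured alveolus. The libraries were chosen by their labels alone and were 9 of the 39 libraries of the study, 5 from old and 4 from young mice. All 9 came from C57BL/6J mice given bleomycin, which injures the lung and leads to fibrosis. All of these mice then had ISRIB by daily intraperitoneal injection starting on day 7, and cells were sorted by flow cytometry on day 21. The sample labels put the young mice at 8 to 12 weeks and the old mice at over 18 months, whereas the text of the series gives 3 to 5 and 18 to 24 months. Mice of the same ages given bleomycin and then saline in place of ISRIB (the text of the series calls this vehicle) provided 5 macrophage libraries per age. Monocytes of naive mice, which had no bleomycin, provided 5 ISRIB libraries per age. The labels do not say that the libraries of a group came from separate animals, so the p-values below measure the spread between libraries, which may be technical. RNA was measured in bulk, so fewer cells of a type and less RNA per cell cannot be told apart.

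In the integrated stress response, kinases phosphorylate the translation initiation factor eIF2, which then inhibits its own exchange factor eIF2B. General protein synthesis falls, while the transcription factor Atf4 is translated more and switches on genes of amino acid synthesis and transport. ISRIB binds eIF2B, holds it in its active assembly and so blunts this response. Macrophages that arise from monocytes after lung injury carry little Siglec F at their surface, express matrix and growth factor genes, and over time take on genes of the resident alveolar macrophages, which carry much of it. The comparison asks which transcripts of these cells differ with age when both ages received the drug.

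Each of the 9 libraries held between 6434156 and 10378206 counts assigned to genes. At least 1 count was found for 13708 to 14815 genes in young and 14870 to 15476 genes in old libraries. Macrophage genes were found in all 9: Mertk, an efferocytosis receptor, ranged from 432 to 557 CPM (counts scaled to library size) against 0.496 to 3.84 CPM in ISRIB monocytes. Itgax (CD11c) ranged from 1810.5 to 2501 CPM against 25.7 to 116 CPM. Adgre1, Cd68, Mrc1 and Lyz2 were also higher in the macrophages. Fcgr1 overlapped (109 to 156 CPM against 68.3 to 206 CPM), and Csf1r was lower (854 to 1284 CPM against 1894 to 2403 CPM). CPM were scaled separately in the 2 cell types. Ly6c2, which marks classical monocytes, lay between 0.191 and 2.88 CPM in the macrophages and between 271 and 677 CPM in the monocytes. In a principal component analysis of the 9 libraries the first component held 25.3% of the variance, with all 4 young libraries below 0 (-46.2 to -4.78) and all 5 old libraries above it (10.8 to 32.8). Young replicate 3 stood apart on the second component (-50.6, against 14.5 to 30.9 in the other young and -14 to 3.23 in the old libraries). It also had the highest summed level of the cell cycle list, 1502 CPM against 553 to 852 CPM in the other young and 656 to 899 CPM in the old libraries.

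At a Benjamini-Hochberg adjusted p under 0.05, edgeR's quasi-likelihood test called 114 of 12171 genes, which is 0.937% of those tested. Of these, 54 (0.444%) were higher and 60 (0.493%) lower in old macrophages. The rises were the larger changes: their median was 1.79 on the log2 scale and 39 of 54 were at least 1, whereas the median fall was -0.70 and 13 of 60 reached 1. The genes that fell were the more abundant, with a median level of 89.6 CPM against 26.6 CPM for those that rose and 24.2 CPM for all genes tested. Over all genes the median change was 0.01. In 100 of the 114 genes the old and young libraries did not overlap, and over all genes tested this held for 593 (4.87%). An unadjusted p under 0.05 was found for 1485 genes (12.2%). The number of calls depended on single libraries: it was 33 without young replicate 3, 41 without young replicate 4, 52, 56 and 71 without old replicates 3, 5 and 2, and up to 161 without young replicate 1. It was 405 without a filter on low counts, 260 with DESeq2 and 50 when all 39 libraries were fitted together. Of the 114 genes, 26 stayed called without any 1 of the 9 libraries. In 14 of these the call also held under every other alternative tried: Col4a1, Col4a2, Marco, Bmpr1a, Clec1a, Ccnd2 and Glipr2 among those that rose, and Plxdc2, Nectin1, Rnf150, Fn1, Cux1, Cspg4 and Syne3 among those that fell.

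**Figure D1:**
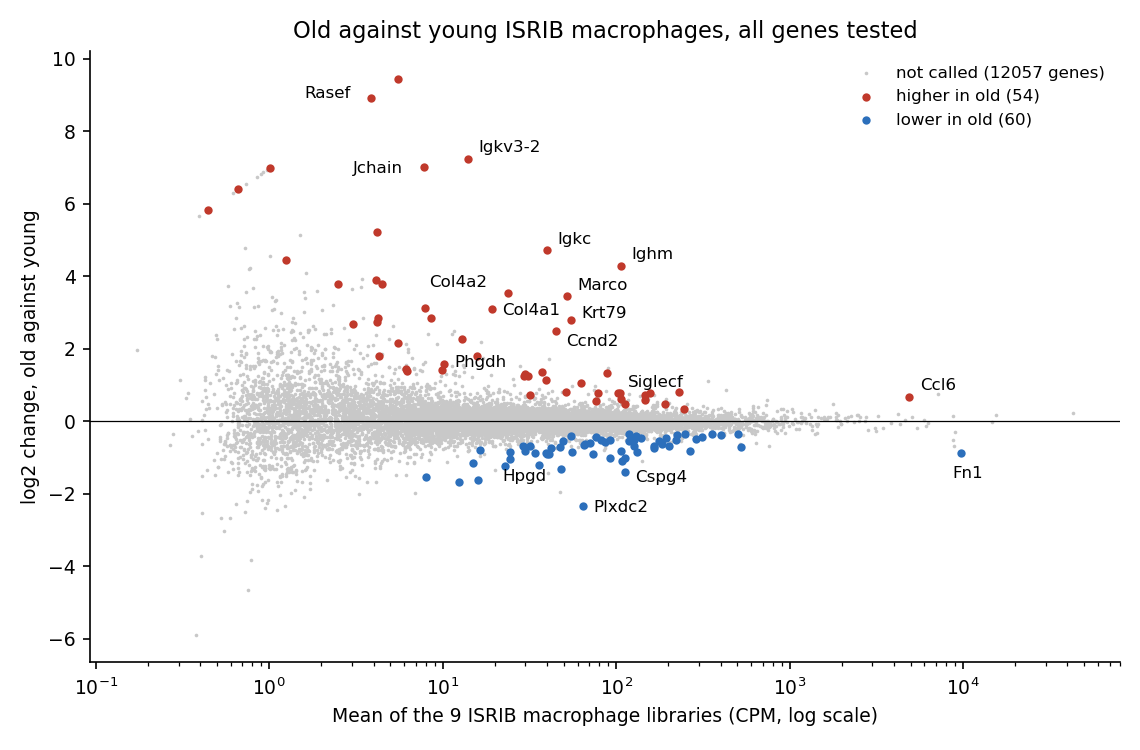
Log2 change with age (vertical axis; above 0 is higher in old) against the mean level over the 9 ISRIB macrophage libraries (horizontal axis, CPM, log scale); each point is 1 of 12171 genes, red for the 54 called higher and blue for the 60 called lower. The points highest on the vertical axis belong to genes with few or no counts in young libraries, for which the fitted change depends on the prior count; Fn1 and Ccl6 are the called genes furthest to the right.

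In the list of mature alveolar macrophage genes, the members that passed the test rose with age. Of the 38 members of that list that were tested, 5 were called higher (Marco, Krt79, Ccl6, Siglecf and Ear1) and 0 lower, with a median log2 change of 0.21 against 0.01 for all genes. The list's summed level was 28590 to 30518 CPM in young and 31223 to 40595 CPM in old libraries. Abundant members weigh most in this sum: Chil3, which was not called, averaged 5259 CPM in young and 8794 CPM in old libraries. Ccl6 averaged 3679 and 5888 CPM. Marco (ENSMUSG00000026390, chromosome 1, 120474538 to 120505024), a scavenger receptor for bacteria and particles, measured 1.34, 6.26, 17.2 and 8.59 CPM in young replicates 1 to 4 and 48, 116, 127, 55.6 and 87.4 CPM in old replicates 1 to 5. Every old library was above every young one, with old replicates 2 and 3 highest and young replicate 1 lowest. The change was 3.44 ± 0.51 on the log2 scale (SE; adjusted p = 8.55e-04 by edgeR), and Marco kept its call without any 1 library (highest adjusted p 0.00733).

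Siglecf (ENSMUSG00000039013, chromosome 7, 43351341 to 43359531) encodes the sialic acid receptor used to gate these cells as low. It measured 81.3, 80.1, 58.7 and 71.4 CPM in young and 99.7, 113, 152, 124 and 139.7 CPM in old libraries, so that all old libraries lay above all young ones within a gate set on the low protein. The change was 0.78 ± 0.18 (SE, log2 scale; adjusted p = 0.0264 by edgeR). Krt79, a keratin gene known as a marker of alveolar macrophages, measured 16.6, 19.5, 5.30 and 8.90 CPM in young and 42, 92.3, 136, 72.4 and 104 CPM in old libraries. It rose by 2.79 ± 0.56 (adjusted p = 0.0123), and old replicates 3, 5 and 2 were the highest. Ear1, an eosinophil-associated ribonuclease that alveolar macrophages express, rose by 1.34 ± 0.32 (adjusted p = 0.0351), with 33.6 to 66.6 CPM in young and 70.9 to 181 CPM in old libraries. The near-identical genes of the Ear family can share reads, so its level is uncertain. Ccl6, a chemokine made constitutively by macrophages, rose by 0.68 ± 0.14 (adjusted p = 0.0148), with 2858 to 4429 CPM in young and 4651 to 7551 CPM in old libraries.

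Over the whole list 30 members were higher and 8 lower in old macrophages, 16 and 2 of them at an unadjusted p under 0.05. Of all genes tested, 12.2% had such a p in either direction. The next members named did not pass the test. Fabp1, which binds fatty acids, changed by 2.14 ± 0.56 (adjusted p = 0.0615 by edgeR), the chitinase-like Chil3 by 0.74 ± 0.22 (adjusted p = 0.111), and Pparg, the nuclear receptor that drives the alveolar macrophage programme, by 0.15 ± 0.11 (adjusted p = 0.641). Pparg overlapped between the ages, at 111 to 143 CPM in young and 109.6 to 161 CPM in old libraries. Among 32 genes of lipid and surfactant handling, 1 was called, Ch25h, which makes 25-hydroxycholesterol. It rose by 1.26 ± 0.30 (adjusted p = 0.0377), and its libraries overlapped narrowly. Cd36, the receptor for oxidised lipids, measured 341, 414, 139 and 280.4 CPM in young and 547, 449, 429.8, 568 and 684 CPM in old libraries, a change of 0.87 ± 0.22 (adjusted p = 0.0534). Leaving out young replicate 3 or 4 undid the calls of Siglecf, Krt79, Ear1, Ccl6 and Ch25h, and old replicate 3 or 5 those of Siglecf, Ear1, Ccl6 and Ch25h. Young replicate 2 undid those of Ear1 and Ch25h, young replicate 1 that of Ch25h and old replicate 2 that of Ear1; the highest adjusted p was 0.163 (Ear1). The fit of all 39 libraries and the offsets for GC content and length ended the calls of Siglecf, Ear1 and Ch25h, limma voom those of Krt79, Ear1 and Ch25h, a block on replicate number that of Siglecf, and a fit of only the groups compared that of Ch25h.

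Both chains of type IV collagen that form the common basement membrane network were among the genes with the largest rise. Col4a1 (ENSMUSG00000031502, chromosome 8, 11198423 to 11312826) measured 4.11, 3.83, 2.12 and 4.69 CPM in young and 37.7, 27.5, 42.8, 22.8 and 27.1 CPM in old libraries. Col4a2 (ENSMUSG00000031503, chromosome 8, 11312805 to 11449287) measured 4.59, 3.02, 2.57 and 3.59 CPM in young and 50.7, 33.7, 58.6, 18.7 and 39.5 CPM in old libraries. For both genes every old library lay far above every young one, and old replicate 3 was highest. Col4a1 rose by 3.09 ± 0.37 (SE, log2 scale; adjusted p = 3.57e-05 by edgeR) and Col4a2 by 3.53 ± 0.40 (adjusted p = 2.33e-05). Neither lost its call without any 1 library or under any other alternative tried. The 2 genes lie head to head on chromosome 8. Their RefSeq transcripts start at 11312826 on the minus strand (Col4a1) and 11312805 on the plus strand (Col4a2) in GRCm38.p6, so the first 22 bases of each are shared as opposite strands. This stretch, chr8:11312801-11312830 on the plus strand, is shown because the pair rose together, and its capitals mark the bases that lie in both transcripts.
Col4a1 and Col4a2 starts: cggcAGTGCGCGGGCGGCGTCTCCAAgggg
The strand setting of the counting is not given in the sources used here, so how reads within these 22 bases were counted is not known.

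Several signalling and cell surface genes also rose. Bmpr1a, a type I receptor for bone morphogenetic proteins, measured 1.43, 0.928, 1.97 and 1.72 CPM in young and 12.4, 16.4, 14.1, 6.93 and 15 CPM in old libraries. It rose by 3.11 ± 0.47 (SE, log2 scale; adjusted p = 8.55e-04 by edgeR). Ccnd2, which encodes cyclin D2 of the early cell cycle, measured 20.8, 14.6, 8.32 and 5.78 CPM in young and 46.4, 81.6, 93.8, 50.5 and 82.7 CPM in old libraries. It rose by 2.48 ± 0.40 (adjusted p = 0.00171). Clec1a, a C-type lectin receptor, measured 5.73, 9.63, 5.60 and 5.47 CPM in young and 19, 21.5, 25.3, 29.8 and 20.1 CPM in old libraries. It rose by 1.80 ± 0.24 (adjusted p = 1.42e-04). Clec9a, a lectin that recognises actin of dead cells and marks cross-presenting dendritic cells, rose by 1.59 ± 0.31 (adjusted p = 0.0111), with 1.56 to 6.73 CPM in young and 8.52 to 20.4 CPM in old libraries. Ly75 (DEC-205), an endocytic receptor of dendritic cells that alveolar macrophages also carry, rose by 0.80 ± 0.16 (adjusted p = 0.0123), with 138 to 174 CPM in young and 205 to 335 CPM in old libraries. Treml4, a receptor of the TREM family, rose by 1.42 ± 0.29 (adjusted p = 0.0148). Glipr2 rose by 1.05 ± 0.18 (adjusted p = 0.00335), and Ralgds, an exchange factor for Ral GTPases, by 0.79 ± 0.14 (adjusted p = 0.00424). Without young replicate 3 or 4 the calls of Ly75 and Treml4 were lost, and without old replicate 5 that of Treml4 (highest adjusted p 0.0757). Those of Clec9a, Ly75, Treml4 and Ralgds ended in the fit of all 39 libraries.

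A few genes were close to absent from the young libraries. Rasef, a Rab-type GTPase, had 0 counts in the 4 young libraries and 4.29, 14.4, 7.27, 5.49 and 3.08 CPM in the old ones. With 3 counts over the young group as the floor, old libraries were at least 73.6-fold higher (adjusted p = 0.0234 by edgeR). Rasef passed the filter on low counts through libraries of old mice alone, so only a rise could be called. Enpp5 was at 0, 1.74, 0 and 0 CPM in young and 3.98, 7.41, 10.7, 5.62 and 7.5 CPM in old libraries. It rose by 3.90 ± 0.92 (adjusted p = 0.0352). Pdk4, the kinase that turns off pyruvate dehydrogenase, rose by 2.85 ± 0.68 (adjusted p = 0.0357), with 0.937 to 3.25 CPM in young and 7.96 to 22.9 CPM in old libraries. These calls were among the less stable: leaving out 1 library undid that of Rasef for 5, that of Enpp5 for 6 and that of Pdk4 for 7 of the 9 libraries, young replicates 3 and 4 and old replicates 2 and 3 in each case. The others were young replicate 2 (Rasef), young replicate 1 and old replicate 5 (Enpp5 and Pdk4) and old replicate 4 (Pdk4), and the highest adjusted p was 0.147 (Pdk4). The fit of all 39 libraries ended all 3 calls, limma voom those of Enpp5 and Pdk4, and the replicate block and thinned counts that of Pdk4.

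In the list of matrix proteins and matrix enzymes, which does not hold Col4a1 and Col4a2, the members that passed the test fell. Of 27 tested genes, 3 were called lower (Fn1, Emilin2 and Adam9) and 0 higher, with a median log2 change of -0.29 against 0.01 for all genes. The list was mixed below the threshold: 9 members were higher and 18 lower, 6 and 10 of them at an unadjusted p under 0.05 by edgeR. Of all genes tested, 12.2% had such a p in either direction. The list's summed level was 37349 to 44332 CPM in young and 22721 to 37772 CPM in old libraries. Fn1 (ENSMUSG00000026193, chromosome 1, 71585520 to 71653200), the gene of fibronectin, measured 11918, 12827, 13718 and 13449.9 CPM in young and 8364, 6291, 6888, 8623 and 5390.2 CPM in old libraries. All old libraries lay below all young ones, with old replicate 5 lowest, and the change was -0.87 ± 0.14 (SE, log2 scale; adjusted p = 0.0016 by edgeR). Emilin2, a glycoprotein of elastic fibres, measured 223, 224, 341 and 236 CPM in young and 169, 167, 156, 156 and 147 CPM in old libraries, lower in every old library, and changed by -0.69 ± 0.13 (adjusted p = 0.00882). Adam9, a membrane protease that sheds surface proteins, changed by -0.44 ± 0.09 (adjusted p = 0.0117), with 343 to 391.8 CPM in young and 253 to 299 CPM in old libraries. Emilin2 lost its call without young replicate 3 (adjusted p 0.0539) and Adam9 without young replicate 3 or 4 (highest 0.0539). That of Adam9 also ended in the fit of all 39 libraries.

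A proteoglycan, adhesion receptors and a growth factor fell as well. Cspg4, which encodes the NG2 proteoglycan, measured 126, 124, 245 and 189 CPM in young and 76, 70.3, 58.6, 82.5 and 36.4 CPM in old libraries. It changed by -1.39 ± 0.24 (SE, log2 scale; adjusted p = 0.00378 by edgeR). The young libraries were themselves spread, with replicates 1 and 2 below 3 and 4, but none reached the old range. Itgav, the integrin chain that activates latent TGF-beta and binds fibronectin, measured 159.5, 158, 160.1 and 160.4 CPM in young and 108, 103, 87.9, 105 and 96.6 CPM in old libraries. It changed by -0.67 ± 0.11 (adjusted p = 0.00141). Hgf, hepatocyte growth factor, measured 65.5, 75.5, 71.9 and 81.7 CPM in young and 54.2, 35, 31.1, 50.7 and 33.9 CPM in old libraries. It changed by -0.84 ± 0.16 (adjusted p = 0.00651). Nectin1, an adhesion molecule, measured 33, 29, 37.8 and 38.6 CPM in young and 15.3, 18.5, 18.4, 15.3 and 15.5 CPM in old libraries. It changed by -1.05 ± 0.12 (adjusted p = 2.33e-05). Lrp5, a co-receptor for Wnt ligands, changed by -0.88 ± 0.16 (adjusted p = 0.0071), a call that was lost without young replicate 3 (adjusted p 0.0526). Itgav and Hgf lost their calls in the fit of all 39 libraries.

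In the list of profibrotic and repair genes of macrophages, Fn1 was the 1 call among 33 genes tested, and the median was -0.06. At an unadjusted p under 0.05 by edgeR, 11 members were lower and 3 higher, where 12.2% of all genes tested passed. Spp1, the gene of osteopontin, measured 8319, 11246, 11888 and 13540.5 CPM in young and 8461, 3966, 4889, 11759.5 and 5929.6 CPM in old libraries. Its groups overlapped, since old replicates 1 and 4 lay within the young range while old replicates 2, 3 and 5 lay below it, and the change was -0.68 ± 0.23 (adjusted p = 0.166 by edgeR). Arg1, the arginase of alternatively activated macrophages, varied from 20.6 to 171 CPM among young and from 4.69 to 35.6 CPM among old libraries (change -1.95 ± 0.73, adjusted p = 0.237). Thbs1, thrombospondin 1, changed by -1.44 ± 0.43 (adjusted p = 0.117) and Sparc, a matricellular glycoprotein, by -1.68 ± 0.50 (adjusted p = 0.115). Pdgfa, a growth factor for fibroblasts, changed by 0.17 ± 0.22 (adjusted p = 0.838), the macrophage elastase Mmp12 by -0.06 ± 0.25 (adjusted p = 0.958) and the lipid receptor Trem2 by 0.08 ± 0.14 (adjusted p = 0.878). The collagen-degrading Ctsk changed by 0.58 ± 0.15 (adjusted p = 0.0565), with the old libraries towards the higher values. A change in Spp1 or Arg1 that missed the threshold does not show equal levels, given the spread among replicates.

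Genes linked to monocyte origin and recruitment were split. Of 30 tested members of that list, 3 were called lower (Plxdc2, S100a4 and Cx3cr1) and 0 higher, while the median of the list was 0.20. At an unadjusted p under 0.05 by edgeR, 9 members were higher and 11 lower, where 12.2% of all genes tested passed. Plxdc2 (ENSMUSG00000026748, chromosome 2, 16356304 to 16755839), a membrane protein with a plexin domain, had the smallest p of all genes. It measured 99.97, 121, 123 and 120.3 CPM in young and 30.6, 19.1, 18, 26 and 19.7 CPM in old libraries, 2 ranges far apart, and changed by -2.35 ± 0.24 (SE, log2 scale; adjusted p = 6.05e-06 by edgeR). Although it is in this list, Plxdc2 did not pass the filter on low counts in the monocyte libraries and was not tested there. Cx3cr1, the fractalkine receptor, measured 128, 196, 111 and 129 CPM in young and 101, 74.5, 65.3, 98.2 and 58.8 CPM in old libraries. It changed by -0.82 ± 0.20 (adjusted p = 0.0401). The calcium-binding S100a4 measured 99, 100.1, 187 and 131 CPM in young and 61.8, 71.4, 59.8, 91.1 and 33.6 CPM in old libraries. It changed by -1.02 ± 0.25 (adjusted p = 0.0462). Ccr2, the chemokine receptor that brings classical monocytes into tissue, measured 184, 169, 291 and 155 CPM in young and 144, 101, 93.2, 71 and 55.3 CPM in old libraries. The groups did not overlap, but the change of -1.10 ± 0.28 missed the threshold (adjusted p = 0.0563), and it passed in 5 of the 10 alternatives other than leaving out a library. Ly6c2, given above for all 9 libraries, stayed far below its level in monocytes.

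From outside the list, the integrin chains Itga4 and Itga6, which bind VCAM-1 and laminin, changed by -0.49 ± 0.11 (adjusted p = 0.0234 by edgeR) and -0.91 ± 0.22 (adjusted p = 0.0434). Hpgd, which breaks down prostaglandin E2, measured 64.7, 83.3, 69.4 and 69.1 CPM in young and 47.2, 28.3, 17.9, 35.2 and 15.1 CPM in old libraries. It changed by -1.31 ± 0.22 (adjusted p = 0.003). Fcgr2b, the inhibitory Fc receptor, changed by -0.72 ± 0.15 (adjusted p = 0.0123), and Ace, angiotensin-converting enzyme, by -1.02 ± 0.25 (adjusted p = 0.0412). Ace overlapped between the ages because young replicate 1, at 71.2 CPM, lay in the old range. Calls for Cx3cr1, S100a4, Itga4, Itga6 and Ace were each lost without young replicate 3 or 4 or old replicate 3 or 5, and the highest adjusted p was 0.185 (S100a4). The same happened without young replicate 2 (Cx3cr1, Itga4 and Itga6), old replicate 2 (all but Itga4) and old replicate 1 (S100a4 and Ace); Fcgr2b lost its call without young replicate 3. The fit of all 39 libraries ended the calls of Itga4, Itga6, Hpgd, Fcgr2b, Ace and Cx3cr1, limma voom those of Cx3cr1, S100a4, Itga6 and Ace, and the replicate block and a fit of only the groups compared that of Ace.

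Further genes with large falls came from no list. Sel1l3 changed by -1.68 ± 0.37 (SE, log2 scale; adjusted p = 0.0233 by edgeR), with 18 to 22.3 CPM in young and 1.94 to 13.8 CPM in old libraries. Galnt12, which starts O-linked glycans, changed by -1.53 ± 0.35 (adjusted p = 0.0274), and Gpr171, a G protein-coupled receptor, by -1.63 ± 0.31 (adjusted p = 0.00849). Cacna1d, a voltage-gated calcium channel, changed by -1.20 ± 0.27 (adjusted p = 0.0283), the calcium pump Atp2b4 by -0.91 ± 0.19 (adjusted p = 0.014) and the diacylglycerol kinase Dgkg by -1.15 ± 0.23 (adjusted p = 0.0123). Rnf150 changed by -1.24 ± 0.19 (adjusted p = 0.00141). The transcription regulators Cux1 and Cbfa2t3 changed by -0.73 ± 0.12 (adjusted p = 0.0016) and -0.89 ± 0.19 (adjusted p = 0.0148). The old and young libraries of these genes did not overlap, except for Gpr171. Leaving out young replicate 3 undid the calls of Sel1l3, Galnt12, Gpr171, Cacna1d, Atp2b4, Dgkg and Cbfa2t3 (highest adjusted p over single libraries 0.104, for Cacna1d), and those of Rnf150 and Cux1 held throughout. Young replicate 4 and old replicates 2, 3 and 5 also undid the calls of Sel1l3, Galnt12 and Cacna1d, young replicate 4 those of Gpr171 and Atp2b4, old replicate 5 those of Atp2b4 and Cbfa2t3, old replicate 3 that of Cbfa2t3, young replicate 2 those of Sel1l3 and Galnt12 and old replicate 1 that of Galnt12. The fit of all 39 libraries ended the calls of Sel1l3, Galnt12, Gpr171 and Atp2b4, limma voom that of Galnt12, and a fit of only the groups compared those of Cacna1d and Dgkg.

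**Figure D2:**
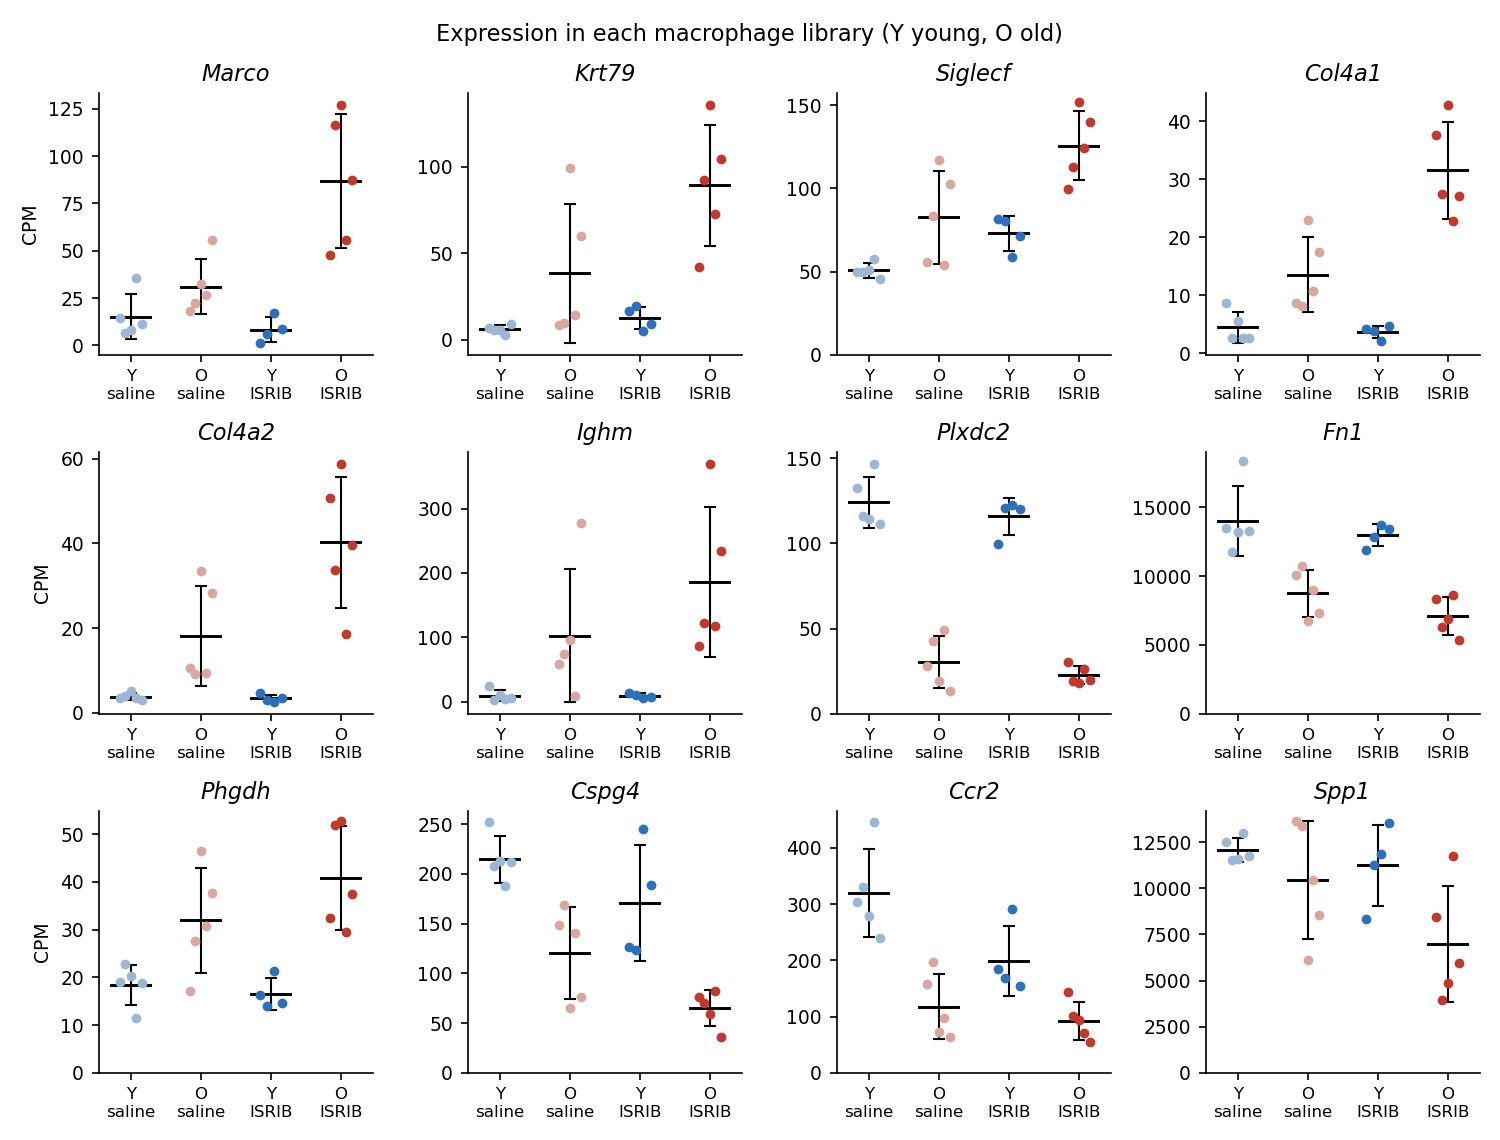
CPM of 12 genes (vertical axes) in each macrophage library by age and treatment; points are libraries, the wide bar is the mean and the error bar 1 SD (n = 4 for young ISRIB, 5 for the other groups). In the ISRIB groups the old libraries lie wholly above the young ones for Marco, Krt79, Siglecf, Col4a1, Col4a2, Ighm and Phgdh and wholly below for Plxdc2, Fn1, Cspg4 and Ccr2, while Spp1 overlaps.

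Targets of the integrated stress response, the pathway on which ISRIB acts, gave 1 call among 33 genes tested, and the median was 0.08. That gene was Phgdh, the first enzyme of serine synthesis, at 16.2, 13.9, 21.3 and 14.5 CPM in young and 32.3, 52, 52.7, 29.5 and 37.5 CPM in old libraries. The groups did not overlap, the change was 1.31 ± 0.24 (SE, log2 scale; adjusted p = 0.00622 by edgeR) and the call held without any 1 library but ended in the fit of all 39 libraries. Psat1, the next enzyme of the same pathway, measured 7.74, 9.39, 21.5 and 9.69 CPM in young and 13.9, 8.77, 12.4, 10.7 and 5.90 CPM in old libraries. It changed by -0.21 ± 0.30 (adjusted p = 0.861). Its highest value was in young replicate 3. Atf4 itself measured 129.5, 131, 80.3 and 117 CPM in young and 135, 149.7, 136, 118 and 141 CPM in old libraries, a change of 0.24 ± 0.12 (adjusted p = 0.429), although Atf4 is regulated mainly in translation, which these data do not measure. Gdf15, a stress cytokine, changed by 1.15 ± 0.39 (adjusted p = 0.168) and Ddit4, an inhibitor of mTOR signalling, by 1.64 ± 0.65 (adjusted p = 0.267). Both had overlapping groups.

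Among 20 genes for eIF2 kinases, phosphatase subunits and eIF2B, 0 were called, and 3 had an unadjusted p under 0.05. Eif2b1, a subunit of ISRIB's target, changed by -0.38 ± 0.17 (adjusted p = 0.354 by edgeR), and Ppp1r15a, which directs the phosphatase to eIF2, by 0.40 ± 0.19 (adjusted p = 0.41). Chaperones of the endoplasmic reticulum gave 0 calls in 30 genes, with 24 of the 30 higher in old and a median of 0.13. Its leading chaperone Hspa5 measured 833, 936, 870.4 and 1133 CPM in young and 1128, 1009, 1158, 1065 and 1306 CPM in old libraries, a change of 0.27 ± 0.12 (adjusted p = 0.376). There were 0 calls in 23 cytosolic chaperones (median 0.14), 0 in 37 proteasome genes (0.01) and 0 in 57 cytosolic ribosomal protein genes (0.05). Counts at an unadjusted p under 0.05 were 9, 7, 1 and 1 in these 4 lists, where 12.2% of all genes tested passed.

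Other programmes held few calls. None of 44 cell cycle genes was called or had an unadjusted p under 0.05, and the median was -0.04. The type I interferon response gave 0 calls in 39 genes (median -0.10), antigen presentation 0 in 25 (0.09), lysosomal genes 0 in 41 (-0.02), glycolysis and hypoxia 0 in 31 (-0.01), the circadian clock 0 in 17 (-0.03) and immediate early genes 0 in 28 (-0.05). Counts at an unadjusted p under 0.05 by edgeR were 3, 7, 9, 3, 1 and 4, where 12.2% of all genes tested passed. In the chemokine and cytokine list the call was Ccl6, 1 of 33, with a median of 0.24. In the antioxidant list the call was Me1, malic enzyme, 1 of 29 (median 0.07). Me1 had 3 counts in young libraries and measured 3.06, 1.11, 0.727, 2.48 and 3.62 CPM in the old ones, a ratio of 23.6 (95% interval 7.82 to 117) for counting error only. Marco was the call among 28 complement and efferocytosis genes (median 0.08), in which C1qa, C1qb and C1qc, the chains of complement C1q, changed by -0.62 ± 0.18, -0.70 ± 0.20 and -0.62 ± 0.17 without passing (adjusted p = 0.114, 0.0885 and 0.0772). The iron reductase Steap3 was the call among 18 iron genes (median 0.04) and changed by -0.73 ± 0.17 (adjusted p = 0.0274). Pmepa1, a TGF-beta target, joined Cx3cr1 as the 2 falls among 28 genes of interstitial and tissue macrophages (median 0.04), with a change of -0.52 ± 0.12 (adjusted p = 0.0293). In the senescence list 0 of 25 were called (median 0.08, 7 at an unadjusted p under 0.05). Cdkn2a, the cell cycle inhibitor locus used as a marker of senescence, had 0 counts in the young libraries and 0.510, 3.09, 0.848, 0.261 and 2.95 CPM in the old ones. With the floor of 3 counts that is at least 15.8-fold higher, with an adjusted p of 0.0603. The calls of Me1, Steap3 and Pmepa1 were lost without young replicate 3 or 4, that of Me1 also without young replicate 2, that of Steap3 without young replicate 2 or old replicate 2, 3 or 5, and that of Pmepa1 without old replicate 2, 3, 4 or 5 (highest adjusted p 0.114). All 3 also ended in the fit of all 39 libraries, Me1 and Steap3 with limma voom and Pmepa1 with the replicate block.

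**Figure D3:**
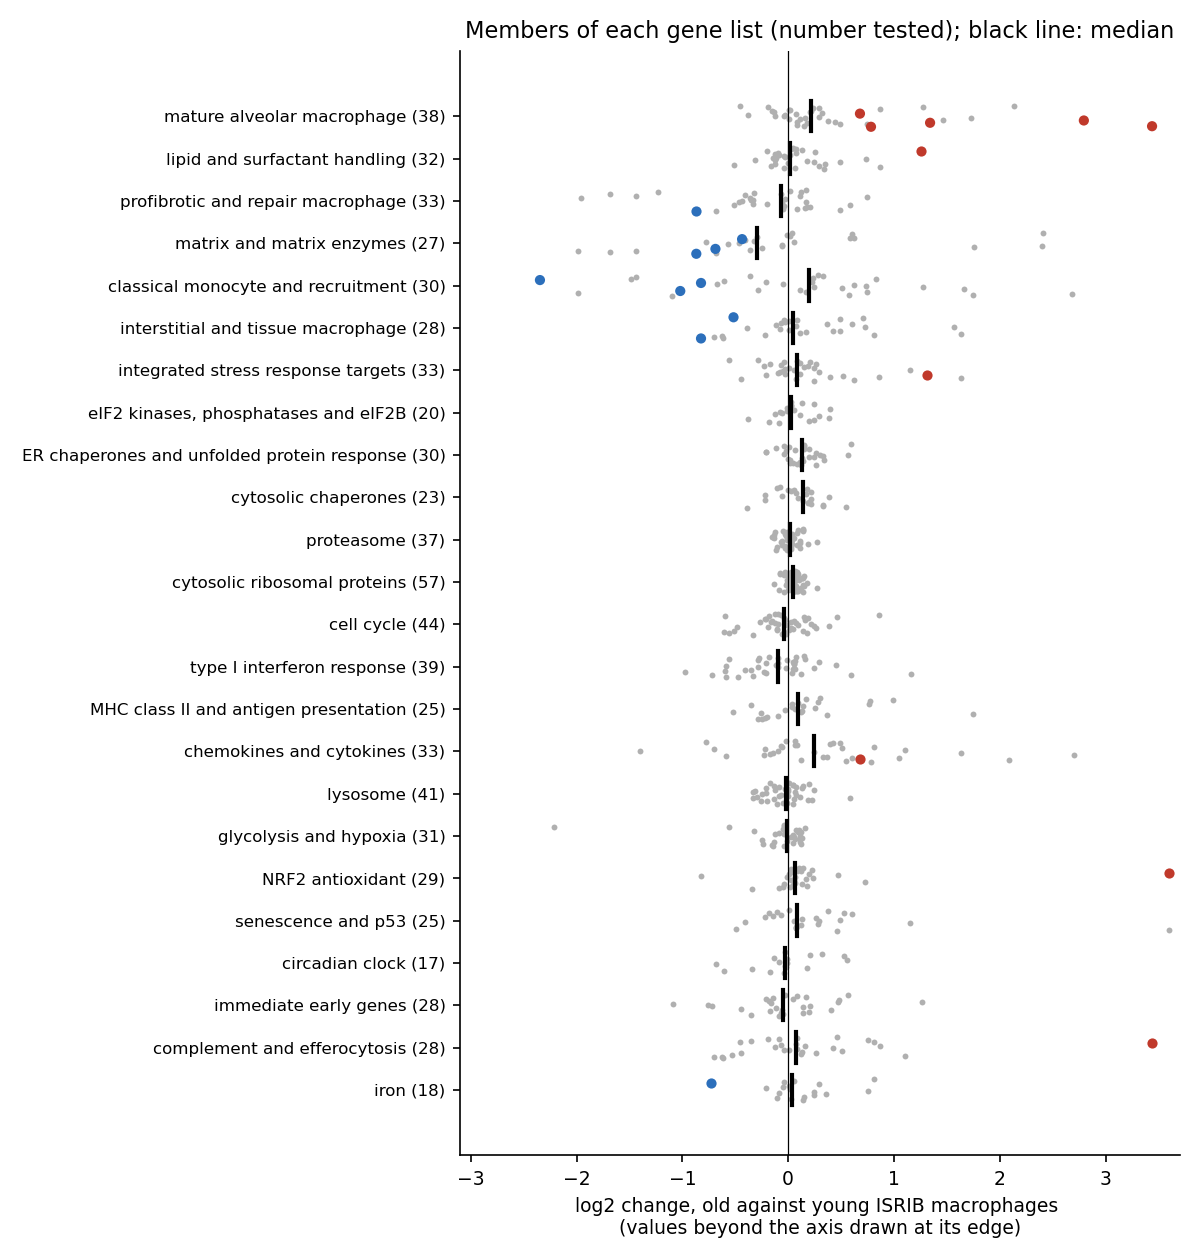
Log2 change with age in ISRIB macrophages (horizontal axis) for the tested members of 24 gene lists (number tested in brackets); grey points are not called, red points called higher, blue points called lower, and the black bar is the list's median. Most medians lie within 0.1 of 0; the matrix list lies lowest (-0.29) and the chemokine (0.24), mature alveolar macrophage (0.21) and monocyte (0.20) lists highest; points beyond -3 or 3.6 are drawn at those limits.

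Immunoglobulin and other lymphocyte transcripts rose with age. Of 21 tested genes of B and plasma cells, 7 were called higher and 0 lower, with a median of 2.39 on the log2 scale, which was the same with genes at 0 in young libraries set to their bound. Summed over 255 immunoglobulin genes of the table, young libraries held 25.5, 18.0, 7.26 and 11.6 CPM and old libraries 188, 254, 715, 214 and 494 CPM. The number of these genes with a count was 5 to 14 in young and 29 to 64 in old libraries, so that many segments contributed. Ighm (ENSMUSG00000076617, chromosome 12, 113418558 to 113422730), the heavy chain of IgM, measured 14, 10.9, 5.45 and 6.56 CPM in young and 86.8, 122, 369, 117 and 235 CPM in old libraries. It rose by 4.29 ± 0.69 (SE, log2 scale; adjusted p = 0.00164 by edgeR). Igkc, the kappa light chain, measured 4.01, 3.25, 0 and 2.66 CPM in young and 29.9, 52.5, 138, 39.2 and 88.6 CPM in old libraries. It rose by 4.72 ± 0.67 (adjusted p = 4.57e-04). In both, old replicates 3 and 5 were highest. Jchain, which joins polymeric antibodies in plasma cells, had 3 counts in young libraries and measured 4.39, 6.92, 33.8, 6.54 and 18.2 CPM in old ones, a ratio of 146 (95% interval 49.8 to 711) for counting error only. The variable segments Igkv3-2 and Ighv1-53, which resemble other segments and may share their reads, rose by 7.24 ± 1.15 (adjusted p = 0.0026) and 5.21 ± 1.20 (adjusted p = 0.0296). Igha, the IgA heavy chain, was called (adjusted p = 0.0407) although it measured 17.9, 0.494, 31.6, 0 and 0 CPM in old libraries and 0 counts in young ones. With 3 counts over the young group as the floor, this is at least 114-fold higher, and old replicates 1 and 3 carried the difference.

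The B cell receptor gene Cd79a rose by 2.86 ± 0.63 (adjusted p = 0.0233 by edgeR) and Pou2af1, a B cell coactivator, by 3.79 ± 0.79 (adjusted p = 0.0148). Their levels were low, at most 8.96 CPM in any library. Of 20 tested genes of T and NK cells, 1 was called higher, the adaptor Lat, with a median of 2.06. Lat measured 0.860, 0.580, 0.454 and 1.09 CPM in young and 3.78, 4.94, 6.30, 6.28 and 2.95 CPM in old libraries. It rose by 2.68 ± 0.52 (adjusted p = 0.0102). Gimap4, a lymphocyte GTPase from no list, measured 1.24, 0.696, 0 and 0 CPM in young and 5.00, 8.89, 11.9, 4.31 and 8.44 CPM in old libraries. It rose by 3.79 ± 0.79 (adjusted p = 0.0148). The T cell receptor chain genes Cd247 and Trbc2 changed by 3.30 ± 0.88 (adjusted p = 0.0719) and 3.57 ± 0.96 (adjusted p = 0.0741). Limma voom called none of the immunoglobulin genes named here: its adjusted p was the highest over the alternatives, 0.0923 for Ighm, 0.228 for Igkc, 0.275 for Jchain and 0.345 for Igkv3-2, where the ranges began at 9.92e-26, 2.38e-26, 1.08e-13 and 3.27e-19. Ighm, Igkc, Jchain and Igkv3-2 stayed called without any 1 library, whereas Cd79a, Pou2af1, Lat, Gimap4, Ighv1-53 and Igha were each lost without young replicate 3, and all but Lat without young replicate 4. Further libraries undid some: young replicate 2 (Cd79a, Pou2af1 and Igha), young replicate 1 (Ighv1-53 and Igha), old replicate 2 (Cd79a), old replicate 3 (Cd79a, Gimap4 and Ighv1-53) and old replicate 5 (Ighv1-53), with adjusted p up to 0.12. Limma voom also ended those of Cd79a and Gimap4, the fit of all 39 libraries those of Ighv1-53 and Igha, DESeq2 that of Ighv1-53 and the replicate block that of Igha.

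Lists of other cell types that could share the gate held fewer calls than that of B and plasma cells. For the counts that follow, 12.2% of all genes tested had an unadjusted p under 0.05 by edgeR. Neutrophil genes gave 0 calls in 9 tested (4 at an unadjusted p under 0.05, median 1.57), with a summed level of 163 to 195 CPM in young and 186 to 275 CPM in old libraries and the defining marker Ly6g at 0 in all 9. Of 2 tested genes of eosinophils, basophils and mast cells, Siglecf was called, and the eosinophil peroxidase gene Epx was at 0 in all 9 libraries. Dendritic cell genes gave 2 calls (Clec9a and Ly75) in 15 tested, with a sum of 457 to 551 CPM in young and 602 to 705 CPM in old libraries, while Xcr1 was at most 2.47 CPM. Epithelial genes gave 0 calls in 13 tested (3 at an unadjusted p under 0.05, median -0.15; 349.9 to 399 CPM in young, 327 to 451 CPM in old). Endothelial genes gave 0 in 10 (3 at an unadjusted p under 0.05, median 0.42; 483 to 713 CPM and 427 to 823 CPM). Fibroblast and mural cell genes gave 1 fall in 12 tested, Cspg4 (median -0.39; 381 to 588 CPM and 339.9 to 447 CPM), and Col1a1 was at most 2.34 CPM in any of the 9. The 1 tested gene of red blood cells and platelets was not called (9.46 to 17.4 CPM and 11.4 to 26.6 CPM). The list of B and plasma cells summed to 495 to 643 CPM in young and 775 to 1289.7 CPM in old libraries and that of T and NK cells to 113 to 255 CPM and 233 to 342 CPM. The part of these other cells in the differences described above was not tested.

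**Figure D4:**
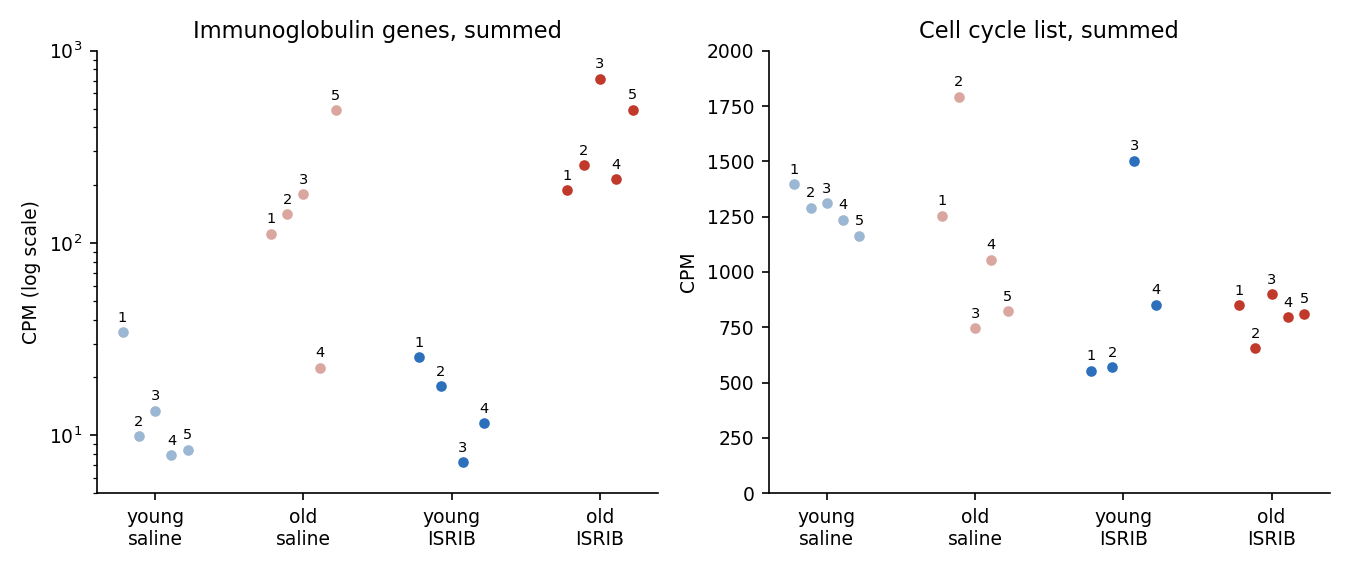
Summed CPM of immunoglobulin genes (left, log scale) and of the cell cycle list (right) in each macrophage library, with replicate numbers beside the points. For immunoglobulins all 5 old ISRIB libraries (188 to 715 CPM) lie above all 4 young ISRIB libraries (7.26 to 25.5 CPM); for the cell cycle list the ages overlap and young ISRIB replicate 3 is highest of the ISRIB libraries at 1502 CPM.

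The same contrast in saline-treated mice, which shares no library with the ISRIB contrast but was part of the same fit, called 141 of 12171 genes (1.16%), 114 higher and 27 lower in old macrophages. That number was 289 without old saline replicate 2, 47 and 64 without old saline replicates 5 and 3, and 80, 80, 77 and 54 without young saline replicates 1 to 4. Of the 114 genes called under ISRIB, 40 were also called under saline. These are 35.1% of the ISRIB calls and 28.4% of the saline calls, and all 40 had the same sign. Of the ISRIB calls, 108 (94.7%) had the same sign under saline, against 61.3% of all genes tested. The 6 with the opposite sign were Klf9, Sh3pxd2b, Slc36a1, Ift80, Nup210 and Mical2. Of the 54 rises 28 were also called under saline, and of the 60 falls 12. Across genes, which are not independent replicates, the log2 changes of the 2 treatments had a Pearson r of 0.51 over 12171 genes. In the saline comparison the change was -2.03 ± 0.23 for Plxdc2 (adjusted p = 3.25e-05 by edgeR), -0.68 ± 0.13 for Fn1 (0.0103), -1.45 ± 0.21 for Hpgd (9.79e-04), 0.71 ± 0.17 for Siglecf (0.0308), 2.66 ± 0.54 for Krt79 (0.0144) and 3.52 ± 0.62 for Ighm (0.00705).

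Whether the age difference itself differed between ISRIB and saline was tested as an interaction. edgeR called 0 of 12171 genes, with 621 (5.10%) at an unadjusted p under 0.05 and 0.717 as the smallest adjusted p; DESeq2 and limma voom also called 0. The count was 33 without a filter on low counts, 1 with the replicate block and 1 without young ISRIB replicate 3. Of the 114 genes called under ISRIB, 35 had an unadjusted interaction p under 0.05. These genes were selected on the ISRIB age effect, which is itself part of the interaction. Their share can therefore not be set against the 5.10% of all genes. Under saline Marco measured 14.3, 6.42, 8.24, 35.5 and 11.3 CPM in young and 18.2, 22.6, 32.4, 26.5 and 55.7 CPM in old libraries, a change of 1.06 ± 0.43 (adjusted p = 0.275). The interaction was 2.38 ± 0.65 (SE; unadjusted p = 0.00129, adjusted p = 0.765), so the test did not show a difference between treatments for Marco. Col4a1 changed by 1.65 ± 0.33 under saline (adjusted p = 0.0128) and Col4a2 by 2.27 ± 0.36 (adjusted p = 0.00186), with adjusted interaction p-values of 0.954 and 0.954. Old saline libraries measured 8.64, 8.10, 23, 10.7 and 17.4 CPM of Col4a1, below all old ISRIB libraries except replicate 4.

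The interaction p was smallest for Tnfaip3, a brake on NF-kB signalling, which changed by -0.03 ± 0.21 under ISRIB and 1.33 ± 0.20 under saline (unadjusted p = 6.30e-05, adjusted p = 0.717 by edgeR). Its young libraries measured 77, 164, 77.9 and 112 CPM under ISRIB and 71, 79.2, 72.3, 62.2 and 67.6 CPM under saline, and its old libraries 88.3, 113, 69.5, 124 and 133 CPM and 119, 167, 150.3, 206 and 243 CPM. Next came Sh3pxd2b, a scaffold of podosomes that was called under ISRIB (-0.36 ± 0.08 and 0.13 ± 0.07), the kinase gene Sik1 (-0.55 ± 0.22 and 0.77 ± 0.21) and the copper pump Atp7a (-0.43 ± 0.11 and 0.22 ± 0.11). Their unadjusted p-values were 1.38e-04, 1.97e-04 and 2.36e-04, and none passed after adjustment. The ISRIB call of Sh3pxd2b was lost without young replicate 4 or old replicate 3 or 5 (highest adjusted p 0.121) and in the fit of all 39 libraries. Over lists, the median of the immediate early genes was -0.05 under ISRIB and 0.54 under saline, and that of chemokines and cytokines 0.24 and 0.62. Other medians were close: 0.21 under ISRIB and 0.25 under saline for mature alveolar macrophage genes. For B and plasma cells they were 2.39 and 2.41, and for T and NK cells 2.06 and 2.03. The matrix list had medians of -0.29 and -0.03, with 0 members called higher and 3 lower under ISRIB and 3 higher and 1 lower under saline. Among lists of other cell types, the median under ISRIB and saline was 1.57 and 0.53 for neutrophils, 0.30 and 0.64 for dendritic cells and -0.39 and 0.07 for fibroblasts and mural cells. These differences between treatments were not tested as lists.

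**Figure D5:**
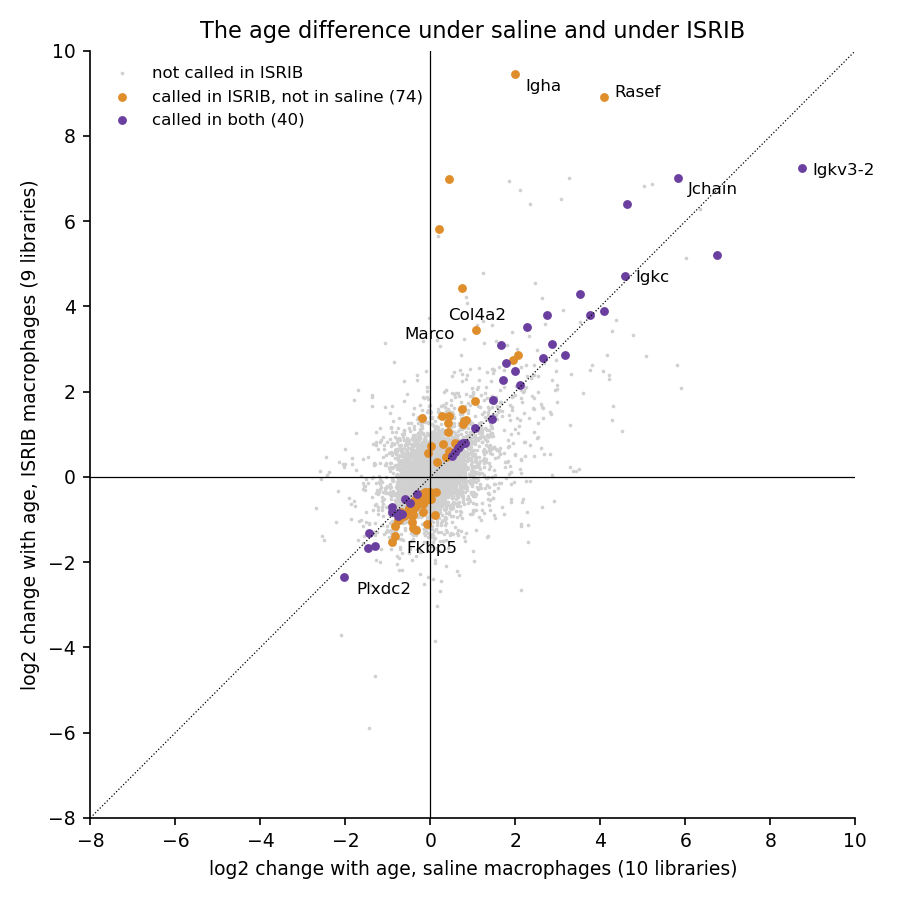
Log2 change with age under ISRIB (vertical axis, 9 libraries) against that under saline (horizontal axis, 10 libraries) for 12171 genes; orange points were called under ISRIB only (74 genes), purple points under both (40 genes), grey points not under ISRIB, and the dotted line marks equal changes. Of the called genes 108 of 114 have the same sign on both axes; Plxdc2, Igkc and Jchain lie near the dotted line, while Marco and Fkbp5 lie nearer to no change under saline.

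In monocytes of naive mice given ISRIB, edgeR called 0 of 12170 genes for age, with 803 (6.60%) at an unadjusted p under 0.05 and 0.0672 as the smallest adjusted p; DESeq2 called 22 and limma voom 1. Without old monocyte replicates 1 and 2 the count was 7 and 17. The monocytes differ from the macrophages in cell type and in bleomycin at once, and these cannot be told apart. Of the 114 macrophage genes, 97 were tested in monocytes. Among them 61 had the same sign, and over all 11166 genes tested in both cell types 51.7% did. At an unadjusted p under 0.05 there were 9, of which 8 had the same sign (Clec1a, Igkc, Bmpr1a, Jchain, Cbfa2t3, Igha, Itga6 and Ccdc167) and 1, Basp1, the opposite one. Bmpr1a was the clearest of these: its monocytes measured 0.438, 0, 0, 0.659 and 0.125 CPM in young and 2.96, 1.38, 7.07, 6.51 and 5.28 CPM in old mice, a change of 4.12 ± 0.77 (SE; unadjusted p = 1.98e-05, adjusted p = 0.0672).

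The test of a different age effect in ISRIB macrophages and ISRIB monocytes called 7 of 13587 genes (0.0515%), 5 with a difference above 0 (0.0368%) and 2 below 0 (0.0147%), while 8.68% had an unadjusted p under 0.05. Of the 7 genes, 4 were also called in the macrophages. Col4a1 and Col4a2 changed by 0.12 ± 0.28 and -0.32 ± 0.46 in monocytes, so that the differences were 2.97 ± 0.48 (adjusted p = 0.00134 by edgeR) and 3.84 ± 0.58 (adjusted p = 9.78e-04). Col4a1 measured 6.08 to 15.7 CPM in young and 6.83 to 17.7 CPM in old monocytes. Ighm measured 130.1 to 206 CPM in young and 128 to 166 CPM in old monocytes, and its difference was 4.39 ± 0.71 (adjusted p = 0.00134). Basp1, a membrane-bound signalling protein, changed by -0.61 ± 0.11 in macrophages and 1.29 ± 0.47 in monocytes, a difference of -1.88 ± 0.39 (adjusted p = 0.0389). The other 3 were Bambi, a decoy receptor for BMP and TGF-beta (-1.40 ± 0.42 and 1.04 ± 0.26), Zfp111 (0.91 ± 0.30 and -1.11 ± 0.27) and Nxpe3, which had 0 counts in young macrophages. For Nxpe3 the old macrophages measured 0.918, 1.24, 1.70, 0 and 2.14 CPM, at least 12.7-fold higher with the same floor. The number of genes called in this test ran from 4 to 21 when 1 library was left out: 4 without old monocyte replicate 4 or 5 or young ISRIB macrophage replicate 3, 18 and 21 without old monocyte replicates 1 and 2. DESeq2 called 66 genes and limma voom 1.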

How the data were processed

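Counts per gene were deposited by the authors as 1 table for all libraries. The submitters' processing notes name bcl2fastq 2.19.1, Trimmomatic 0.36, STAR 2.6.0, HTSeq 0.11.2 and the mm10 build; the annotation and strand setting are not stated there. Per the labels' protocols, polyA libraries were made from 3 ng of RNA. Symbols and positions came from GENCODE vM21 (GRCm38), which matched 98.0% of the 43430 gene IDs. Counts were tested with edgeR 4.0.16 in R 4.3.3 (limma 3.58.1; DESeq2 1.42.0 as an alternative): TMM scaling, filterByExpr (minimum count 10, minimum total 15), quasi-likelihood tests and Benjamini-Hochberg adjustment over all genes tested. The 19 macrophage libraries were fitted together, the 20 monocyte libraries together, and all 39 for the difference between cell types. CPM were TMM-scaled within a cell type. The SE printed with a log2 change was derived from the test, as the absolute change divided by the square root of the quasi-likelihood F. It is approximate for genes near absence in 1 group. Scripts were tested on simulated data. The members, lists and tests were chosen with earlier results of these data known.

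Named genes were the 15 with the largest change in each direction among called genes that did not overlap and whose higher group averaged at least 5 CPM, the leading genes of each list, 12 core genes, up to 10 called under both treatments, and up to 4 with the smallest p of each interaction. Some genes are not reported here. Chosen after their values were seen were Fabp1, Pparg, Treml4, Itgav, Hgf, Thbs1, Sparc, Ace, Itga4, Fcgr2b, Gpr171, Psat1, Ppp1r15a, Igha, Fkbp5, Cux1, Glipr2, Ralgds, C1qa, C1qb, Basp1, Nxpe3 and Zfp111.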

Additional observations from a re-analysis of the deposited data

Results flagged for a closer look

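The age effect differed between ISRIB macrophages and ISRIB monocytes of naive mice for 7 genes by edgeR's test of the difference. On the log2 scale, macrophages minus monocytes, it was 3.84 for Col4a2, 2.97 for Col4a1, 4.39 for Ighm, 6.76 for Nxpe3 (a fitted value that depends on the prior count, since young macrophages had 0 counts), 2.00 for Zfp111, -1.88 for Basp1 and -2.45 for Bambi.

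In 13 of 188 groups of values checked for the 94 genes with values in the text, 1 library stood far from the others of its group; chance gives about 1 in 20. Young replicate 1 stood apart for Plxdc2 (99.97 CPM), Basp1 (69.5 CPM), Me1 (0.287 CPM) and Igkv3-2 (0.478 CPM). Young replicate 2 stood apart for Clec1a (9.63 CPM), Enpp5 (1.74 CPM), Jchain (0.348 CPM) and Ighv1-53 (0.696 CPM). Young replicate 3 did so for Emilin2 (341 CPM), Psat1 (21.5 CPM) and Cbfa2t3 (76.9 CPM). Among old libraries, replicate 3 stood apart for Gpr171 (14.2 CPM) and replicate 4 for Ppp1r15a (36.5 CPM). The young values of Me1, Igkv3-2, Enpp5, Jchain and Ighv1-53 rested on few counts. Enpp5, for example, was at 0 CPM in the other young libraries.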

How the results depend on the processing

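The direction of all 114 age effects called in ISRIB macrophages held without a filter on low counts, with the replicate block and when counts were offset for GC content and length. The number of calls moved more: for the age effect in ISRIB macrophages it was 405 without a filter (237 higher and 168 lower), 260 with DESeq2, 50 with all 39 libraries and 33 to 161 over single libraries left out (33 without young replicate 3). Those offsets gave 160 calls, 50 higher and 110 lower (31.2% higher, against 47.4% in the fit reported), with a median of -0.05 for all genes. For the age effect in saline macrophages the count was 468 without a filter, 294 with DESeq2, 60 with all 39 libraries and 47 to 289 over single libraries. For the age effect of ISRIB minus saline macrophages it was 33 without a filter, 1 with the replicate block and 0 to 1 over single libraries. For the age effect in ISRIB monocytes it was 41 without a filter, 22 with DESeq2, 1 with limma voom, 1 with only the groups compared, 33 with all 39 libraries and 0 to 17 over single libraries. For ISRIB macrophages minus ISRIB monocytes it was 24 without a filter, 66 with DESeq2, 1 with limma voom, 12 with only the groups compared and 4 to 21 over single libraries. With DESeq2, 233 of its 260 ISRIB calls had the same sign in saline. Without a filter the number of genes tested was 22729. The cause of these shifts was not tested.

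For single genes, 665 of 842 values with 1 library left out kept their direction and side of the threshold, 152 lost their call, 17 gained one and 8 changed sign, none of them called. With 1 library left out, the log2 change ran from -0.23 to 0.15 for Mmp12 (above 0 without young replicate 2, old replicate 2 or old replicate 3), from -0.062 to 0.18 for Trem2 and from -0.38 to 0.22 for Psat1 (both with the other sign without young replicate 3) and from -0.17 to 0.25 for Tnfaip3 (above 0 without young replicate 2, old replicate 1 or old replicate 3). Under the other alternatives 817 of 935 stayed the same, 70 lost and 48 gained a call. Whether replicate numbers pair the libraries is not settled by the values. Same-numbered old and young libraries had correlations of their deviations from -0.0313 to 0.0492 (4 pairs), and different numbers -0.0771 to 0.0587 (16 pairs). Of the 4 young libraries, 2 correlated best with their own number. With replicate number as a block there were 106 calls (49 higher and 57 lower), which held 93 of the 114. Depth limits genes near absence in young libraries, such as Rasef, Igha and Cdkn2a, to lower bounds. A gene at 0 counts in the young libraries passed the filter only through other groups and could only come out higher in old ones.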

Other observations

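Fkbp5 and Klf9, of which Fkbp5 was chosen after its values were seen, fell with age in ISRIB macrophages. Fkbp5, a cochaperone of the glucocorticoid receptor, measured 118, 59.4, 232 and 208 CPM in young and 73.6, 84.1, 69.4, 63 and 69.5 CPM in old libraries. Its groups overlapped because young replicate 2 lay below all old libraries, and it changed by -1.10 ± 0.24 (log2, SE; adjusted p = 0.0214 by edgeR). The transcription factor Klf9 measured 40.9, 51.7, 52.6 and 66.7 CPM in young and 31.9, 27.8, 21, 30.1 and 32.2 CPM in old libraries, without overlap, and changed by -0.89 ± 0.19 (adjusted p = 0.0153). Under saline Fkbp5 changed by -0.08 ± 0.23 (adjusted p = 0.943) and Klf9 by 0.10 ± 0.18 (adjusted p = 0.891), with adjusted interaction p-values of 0.869 and 0.765. Both ISRIB calls were lost without young replicate 3 or 4 or old replicate 3, and that of Fkbp5 also without old replicate 5 (highest adjusted p 0.121). The fit of all 39 libraries ended both calls, and limma voom, the replicate block and a fit of only the groups compared ended that of Fkbp5; Fkbp5 had adjusted p-values of 9.22e-10 to 0.401 over these and the other alternatives, and Klf9 of 9.78e-06 to 0.131.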
